A study of Mus musculus with 52 samples.

Results

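The genes described here are 10 genes of the lysosome, namely the cathepsin protease genes Ctsd, Ctsb, Ctsl, Ctss, Ctsh, Ctsz, Ctsc and Ctsa and the membrane protein genes Cd68 and Cd63. They were taken by symbol from the 15692 genes of the deposited count table, and all 10 were found. The list was drawn up with earlier results of these data known, so counts of its members do not stand as independent evidence. Their gene IDs in the table are 13033 (Ctsd), 13030 (Ctsb), 13039 (Ctsl), 13040 (Ctss), 13036 (Ctsh), 64138 (Ctsz), 13032 (Ctsc), 19025 (Ctsa), 12514 (Cd68) and 12512 (Cd63). RNA-seq counts were available for frontal cortex of 52 mice, each carrying the APP/PS1ΔE9 amyloid transgene and human APOE in place of mouse Apoe by targeted replacement, homozygous for APOE3 (APP/E3) or for APOE4 (APP/E4). Mice of both sexes received a normal diet (ND, Prolab Isopro RMH 3000) or a Western diet (HFD, D12079B, with 40% of its calories from milk fat and corn oil), starting at 3.5 months on average and lasting 3 months, and the labels place behavioural testing at 14.7 months on average without stating the age at dissection. The groups held 6 male and 7 female APP/E3 mice on ND, 6 male and 8 female APP/E3 mice on HFD, 6 male and 7 female APP/E4 mice on ND, and 5 male and 7 female APP/E4 mice on HFD. No group lacked the amyloid transgene or carried mouse Apoe, so each comparison was made among amyloid-bearing mice with human APOE.

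Cathepsins are proteases that are made as inactive precursors, reach the lysosome through the secretory pathway and become active in its acid interior, where they break down proteins delivered by endocytosis, phagocytosis and autophagy. They are expressed in many brain cell types, and microglia, the phagocytes of the brain, are rich in several of them, Ctss in particular. Microglia that surround amyloid plaques are known for an enlarged lysosomal compartment, for which the CD68 protein is a customary stain.

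Total counts were between 5343347 and 13128299 per library except for APP/E3 ND male 5, with 39388340, so that 3 counts correspond to 0.0762 to 0.561 CPM. CPM is a gene's count scaled to a common library total. All members lay far above that floor in every library. A set of 11 female libraries stood apart, with Csl, a gene related to citrate synthase, at 0.0937 to 1.15 CPM scaled by library composition (TMM) against 10.7 to 18.2 in all others. These 11 low-Csl libraries were 5 of 8 APP/E3 HFD females and 2 of 7 in each other female group, and 23.7% of genes differed between them and the rest. A further 14 of the 23 male libraries carried titles without the sex letter that all female titles had, 4 in each male group except APP/E4 HFD males, with 2. No label says what the title styles or the Csl reads stand for, and both fall within 1 sex, so the results were also computed with terms for them and without these libraries. APP/E4 HFD male 3 had the highest summed level of monocyte and neutrophil markers, 39.5 CPM against 26.2 in the next library. Microglial genes were high in it too. Its microglial score, a deviation from the group mean described below, was 2.08, and its plaque-induced score was 1.37. The other APP/E4 HFD males had microglial scores between -0.77 and -0.18. Because scores are deviations from the mean of the same group, the high score of male 3 by itself pushes the others below that mean. Values without male 3 are given where they matter. All 20 microglial identity genes were present in every group, with summed levels from 614.5 to 1061 CPM.

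Per kilobase of exon, the aspartic protease gene Ctsd and the cysteine protease gene Ctsb were the most abundant members, with median levels over the 52 libraries of 144 and 142 CPM per kilobase. Ctss, a cysteine protease that stays active at neutral pH, followed at 74.5 CPM per kilobase, then Ctsz, a carboxypeptidase, at 32.6, Ctsa, a serine carboxypeptidase that also protects partner enzymes in the lysosome, at 26.3, and Ctsl, a cysteine endopeptidase, at 16. The lowest were Cd63, a tetraspanin of late endosomes and lysosomes, at 11.2, Cd68 at 10.4, the aminopeptidase gene Ctsh at 7.24 and Ctsc, which removes dipeptides from the ends of proteins, at 1.70. Length was the union of all exons annotated for a gene over its transcripts, so this order depends on the annotation. Ctsl had 6168 bases and Ctsz 1441, and in plain CPM the median of Ctsl (98.7) was above that of Ctsz (47.0). The 4 members with the lowest CPM had the widest relative spread between libraries. The highest library exceeded the lowest 3.9-fold for Cd68, 2.79-fold for Cd63, 2.60-fold for Ctsh and 2.53-fold for Ctsc, but only 1.48-fold for Ctsb and 1.45-fold for Ctsa.

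Promoter windows, from 250 bases before to 50 after an annotated start, were available for 8 of the members from RefSeq (GRCm38.p6, a later build than the mm9 build named for the counts). They are shown because lysosomal genes are known to share an E-box motif bound by the TFEB family, and because PU.1, a factor of macrophages and microglia, binds an ETS-type motif. The capitals mark the E-box CACGTG, its extended form TCACGTGA, or the ETS-type letters GAGGAAGT, which read ACTTCCTC on the other strand. Both strands were searched, and each TCACGTGA also holds a CACGTG.
Ctsd: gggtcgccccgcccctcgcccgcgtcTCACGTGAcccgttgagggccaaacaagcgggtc
Ctsa: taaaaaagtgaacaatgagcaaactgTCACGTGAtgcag
Ctsl: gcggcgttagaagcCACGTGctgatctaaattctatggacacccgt
Ctss: aatgaaaccgaaatgaaagttcACTTCCTC
Ctsc: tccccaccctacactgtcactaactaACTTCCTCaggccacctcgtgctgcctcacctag
The Ctsd stretch lies at chr7:142387893-142387952 on the minus strand, with the motif beginning at -99 from the start, and the Ctsl stretch at chr13:64370725-64370770 on the minus strand, with the motif at -236. The Ctsa stretch lies at chr2:164833734-164833772 on the plus strand, with the motif at -13 and a second copy at 5. The Ctss stretch, at chr3:95526762-95526791, and the Ctsc stretch, at chr7:88277908-88277967, are on the plus strand, with the motif at -2 and -151. Among all 32851 windows of the same length, 7.15% held CACGTG, 0.974% held TCACGTGA and 3.2% held the ETS-type letters. These letters were not found in the windows of Ctsz, Cd68 and Cd63, and a match is a description of sequence, not a binding site.

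**Figure D1:**
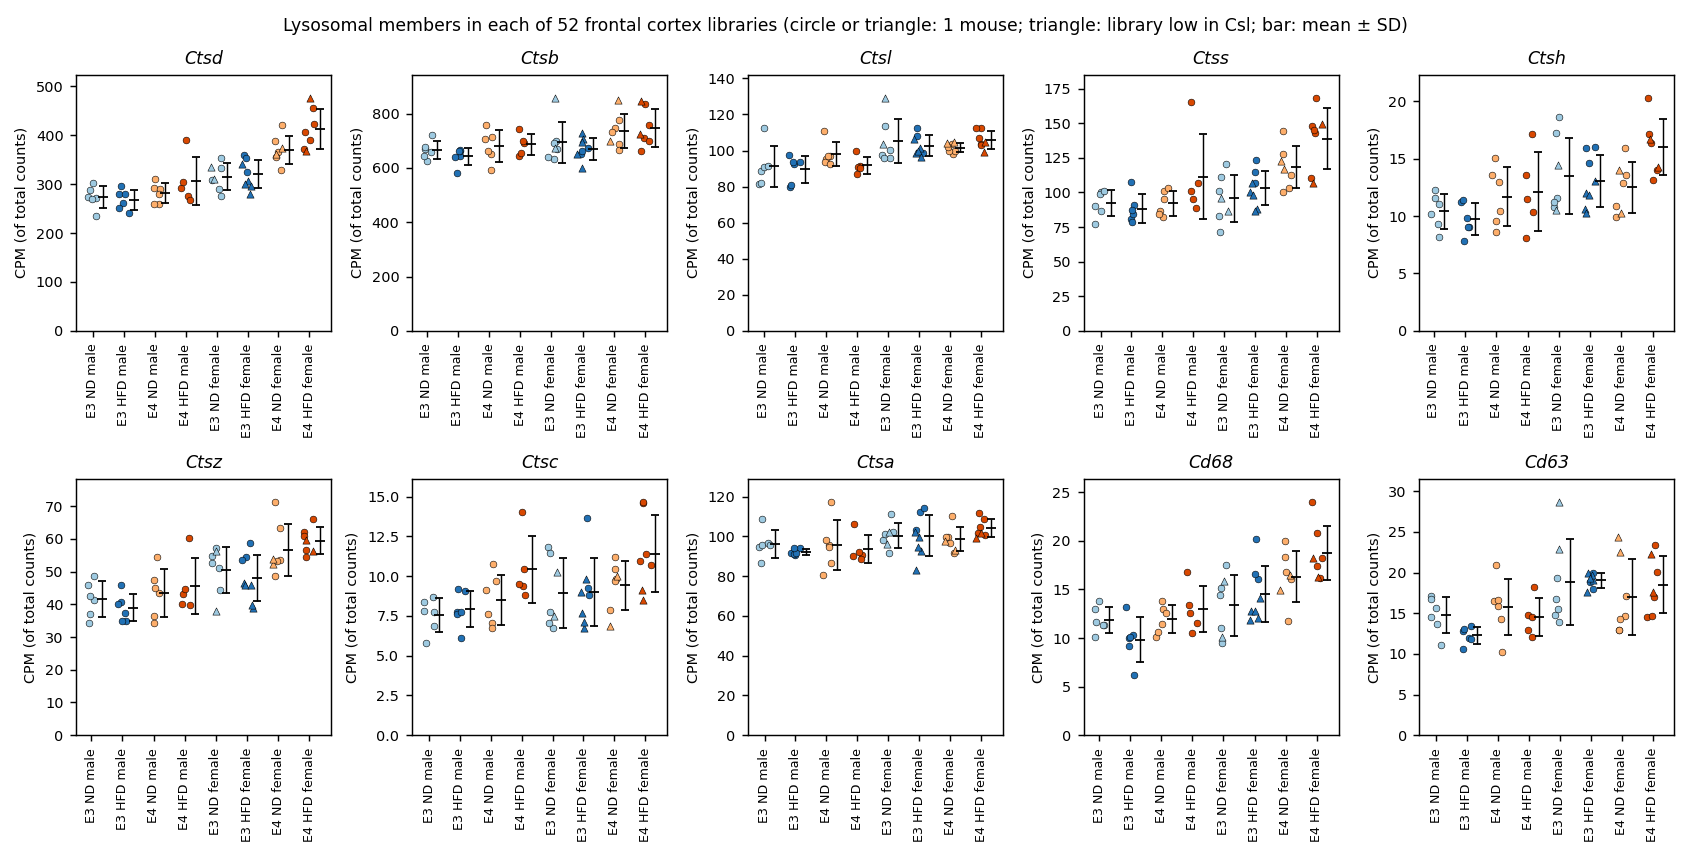
Level of each of the 10 genes in CPM of total counts (y axis) by group of genotype, diet and sex (x axis). Points are mice, triangles are libraries low in Csl, and bars are the group mean ± SD. Ctsd ranged from 368 to 476 CPM in APP/E4 HFD females and from 279 to 359.5 CPM in APP/E3 HFD females.

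Most of the 10 genes had the same highest and lowest groups. Of them, 9 had their highest group mean in APP/E4 HFD females (Cd63 had its in APP/E3 HFD females), and 9 had their lowest in APP/E3 HFD males (Ctsc had its in APP/E3 ND males). Between those ends the order differed by gene. In all 70 pairs of groups that were neighbours in a gene's order the ranges overlapped, and in 68 the means lay within 1 SD. Summed microglial identity genes had the same end groups, with means of 975.8 CPM in APP/E4 HFD females and 684.6 in APP/E3 HFD males. So did summed plaque-induced microglial genes (1128 and 954.4 CPM). Endothelial genes (254 CPM) and astrocyte genes (6485 CPM, next 6361 in APP/E3 ND males) also had their highest means in APP/E4 HFD females. Neuronal genes were highest in APP/E3 ND males (9445 CPM) and oligodendrocyte genes in APP/E4 ND females (3888 CPM). None of the remaining cell type lists had its highest mean in APP/E4 HFD females. The share of all genes with these end groups was not computed.

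Ctsd, the aspartic protease gene, is given by group. In males its lowest, median and highest levels were 235, 273 and 302 CPM in APP/E3 ND and 241, 271 and 295 CPM in APP/E3 HFD. In APP/E4 ND males they were 259.7, 286 and 311 CPM, and the 5 APP/E4 HFD males were at 268, 276, 292, 305 and 389.7 CPM, male 3 being the highest. The male groups therefore overlapped throughout. In females the values were 276, 310.3 and 354 CPM in APP/E3 ND, 279, 316 and 359.5 in APP/E3 HFD, 329.6, 366 and 421 in APP/E4 ND, and 368, 407 and 476 in APP/E4 HFD. The ranges of APP/E4 and APP/E3 females did not overlap on HFD, and they did on ND.

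Ctss had the same highest and lowest groups. It was at 86.8, 104 and 123 CPM (lowest, median, highest) in APP/E3 HFD females and at 107, 145 and 168 CPM in APP/E4 HFD females. In females on ND the values were 71.6, 96.2 and 120.5 CPM for APP/E3 and 100.3, 117 and 145 for APP/E4. Female genotype groups thus overlapped on both diets. In males the values were 77.6, 94.6 and 101 CPM in APP/E3 ND, 79.0, 85.8 and 108 in APP/E3 HFD, and 82.3, 90.7 and 103 in APP/E4 ND. Of the 5 APP/E4 HFD males, 4 were at 88.9, 95.3, 101 and 107 CPM, and male 3 stood above them at 165.5 CPM.

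Cd68 had the widest relative range. Its lowest, median and highest levels in males were 10.1, 11.5 and 13.8 CPM in APP/E3 ND, 6.15, 10.1 and 13.2 in APP/E3 HFD, and 10.1, 12.01 and 13.8 in APP/E4 ND, and the 5 APP/E4 HFD males were at 10.6, 11.6, 12.5, 13.4 and 16.8 CPM. In females they were 9.53, 14.4 and 17.5 CPM in APP/E3 ND, 11.8, 13.5 and 20.1 in APP/E3 HFD, 11.8, 16.5 and 19.99 in APP/E4 ND, and 16.2, 18.3 and 24.0 in APP/E4 HFD. Every APP/E4 HFD female lay above the median of every other group except that of APP/E4 ND females. Ctsz showed the same top group, with 54.5, 59.7 and 66.2 CPM in APP/E4 HFD females against 39.0, 46.3 and 58.9 in APP/E3 HFD females. These ranges overlapped. Over the 8 groups, mean levels ran from 643 to 748 CPM for Ctsb, 89.6 to 106 for Ctsl, 92.2 to 104 for Ctsa, 9.73 to 15.99 for Ctsh and 7.55 to 11.4 for Ctsc.

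The comparison of genotypes asked whether APOE4 mice differed from APOE3 mice, averaged over diet and sex. Ctsd, Ctss, Cd68, Ctsz and Ctsc were higher in APP/E4, by between 1.14-fold and 1.20-fold. That is 5 of 10 members called, all higher, where 6.79% of the 15195 genes tested were called and 3.39% were called higher (edgeR quasi-likelihood test, Benjamini-Hochberg adjusted p under 0.05). The other 5 members also had positive differences without passing, and the median log2 difference was 0.17 over the members against -0.00 over all genes. In bulk tissue, more cells of a type and more RNA per cell cannot be told apart.

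Ctsd was at 348 ± 62.7 CPM (SD, n = 25) in APP/E4 and 297 ± 33.9 (n = 27) in APP/E3, a log2 difference of 0.20 ± 0.04 (SE; edgeR adjusted p = 0.000388). Ctss was at 116 ± 25.6 against 95.6 ± 13.4 CPM, a log2 difference of 0.26 ± 0.06 (adjusted p = 0.00342). Cd68 was at 15.3 ± 3.57 against 12.6 ± 3.00 CPM, a log2 difference of 0.26 ± 0.07 (adjusted p = 0.0139). All 3 genes overlapped between the genotypes when sexes and diets were pooled. Ctsz differed by 0.19 ± 0.05 on the log2 scale (adjusted p = 0.0222) and Ctsc by 0.24 ± 0.07 (adjusted p = 0.0374). The Ctsc call was the least firm, since leaving out any 1 of 14 libraries ended it, APP/E4 HFD male 3 among them (0.21, adjusted p = 0.0677).

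The most abundant cysteine protease gene, Ctsb, differed by 0.09 ± 0.04 (edgeR adjusted p = 0.127) and Ctsh by 0.16 ± 0.07 (adjusted p = 0.188). Without APP/E3 ND female 4, in which Ctsb stood at 858 CPM, Ctsb passed (adjusted p = 0.0344). For Ctsl, Cd63 and Ctsa the log2 differences were 0.03, 0.03 and 0.00, with standard errors of 0.03, 0.07 and 0.03.

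The genotype calls depended on which libraries were used. With a term for the low-Csl class, a term for the title style, or both, 5 members were called. Without the 11 low-Csl libraries Ctsd (log2 difference 0.18, edgeR adjusted p = 0.0081) and Ctss (0.23, adjusted p = 0.0422) passed, and among libraries with a sex letter in the title Ctsd alone did (0.23, adjusted p = 0.0370). With both sets left out no member passed, and 121 genes did in all. Microglial genes moved with this contrast: 18 of 20 identity genes had positive differences, 3 of them called (Gpr34, Ly86 and Laptm5), and their summed level ran from 614.5 to 1007 CPM in APP/E3 and from 634 to 1061 CPM in APP/E4. Genes of other cell types moved too: all 7 oligodendrocyte genes had positive differences (median 0.27, above the members' 0.17), with Mag called (0.38, edgeR adjusted p = 0.0361), and their summed level was 3545 ± 901 CPM (SD, n = 25) in APP/E4 and 2897 ± 802 (n = 27) in APP/E3. The astrocyte gene Gfap was called higher (0.35, adjusted p = 0.0298), with 3 of 8 astrocyte genes positive. The part of these cell types in the members' differences was not tested. A score of the microglial identity genes was also used as a covariate. It was their mean standardized log2 CPM without subtraction of group means, so it holds their own differences between groups. With it, the log2 difference was 0.13 for Ctsd (edgeR adjusted p = 0.0009) and 0.14 for Ctss (adjusted p = 0.0047). For Cd68, Ctsc and Ctsz the adjusted p values were 0.0554, 0.102 and 0.117.

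**Figure D2:**
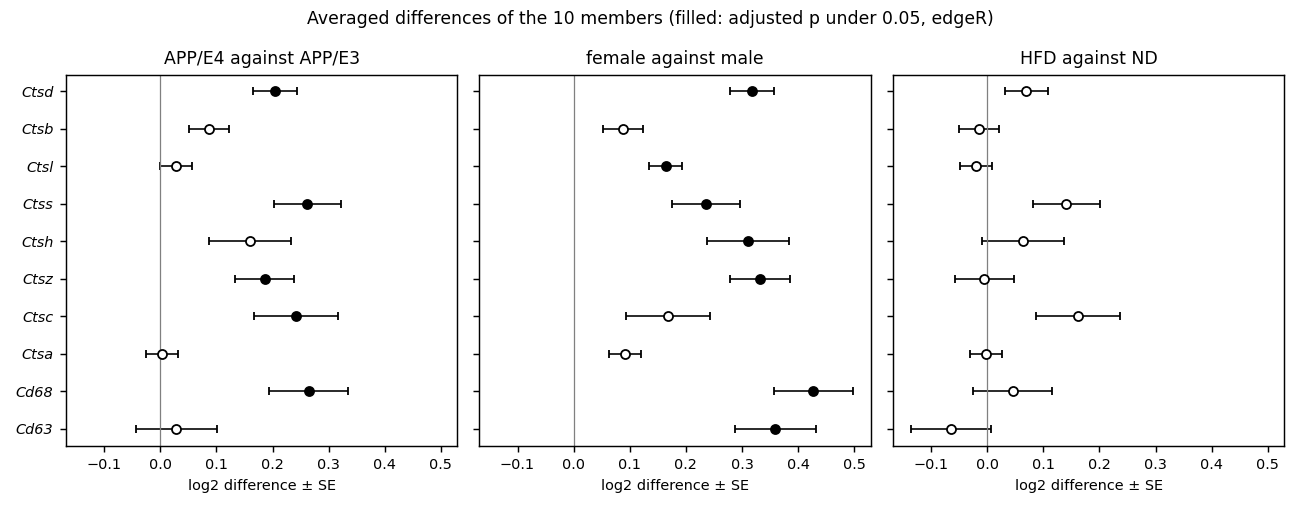
Log2 differences (x axis) of the 10 genes (y axis) for APP/E4 against APP/E3, female against male and HFD against ND, with bars of 1 standard error and filled points for adjusted p under 0.05. The genotype panel has 5 filled points, the sex panel 7 and the diet panel 0.

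Within sex and diet, the genotype difference passed in HFD females alone. There, Ctsd differed by 0.38 ± 0.07 (edgeR adjusted p = 0.00235) and Ctss by 0.44 ± 0.11 (adjusted p = 0.0453), 2 members where 0.605% of genes were called. The Ctss call was lost on leaving out any 1 of 21 libraries and the Ctsd call on none. Of the 8 APP/E3 HFD females 5 were low-Csl libraries, and without the low-Csl libraries neither gene passed. In ND females, where 0.961% of genes were called, Ctsd differed by 0.24 ± 0.07 (adjusted p = 0.0994), and no member passed. The 146 genes behind that share became 42 without APP/E4 ND female 5 and 492 without APP/E3 ND female 4. In males no member passed on ND (0.401% of genes called) or on HFD (0.224%), with Ctsd differences of 0.02 ± 0.08 and 0.19 ± 0.08. Without APP/E4 HFD male 3 the latter was 0.08 ± 0.08. Whether the Ctsd genotype difference itself differed by sex was tested: the interaction was 0.21 ± 0.08, with an unadjusted p of 0.0113 and an edgeR adjusted p of 0.948, and 0 members were called where 0.00658% of genes were.

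The comparison of sexes, averaged over genotype and diet, gave higher levels in females for Ctsd, Ctsz, Cd68, Ctsl, Cd63, Ctsh and Ctss. These 7 of 10 members were called, all higher, where 4.42% of genes were called and 2.91% were called higher. The median log2 difference was 0.27 over the members and 0.00 over all genes. Ctsd was at 354 ± 50.5 CPM (SD, n = 29) in females and 282 ± 30.6 (n = 23) in males, a log2 difference of 0.32 ± 0.04 (SE; edgeR adjusted p = 2.41e-07). Cd68 was at 15.7 ± 3.38 against 11.6 ± 2.10 CPM, a log2 difference of 0.43 ± 0.07 (adjusted p = 0.000116).

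Among the exopeptidase genes, Ctsz differed by 0.33 ± 0.05 (edgeR adjusted p = 7.12e-05) and Ctsh by 0.31 ± 0.07 (adjusted p = 0.00752). Of the endopeptidase genes, Ctsl differed by 0.16 ± 0.03 (adjusted p = 0.000308) and Ctss by 0.24 ± 0.06 (adjusted p = 0.0147). Ctsa, Ctsb and Ctsc had log2 differences of 0.09, 0.09 and 0.17 and did not pass (adjusted p = 0.0554, 0.147 and 0.202). Ctsa passed when any 1 of 6 libraries was left out.

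Sex and title style were only partly separable, because all letterless titles were male. Ctsd in the 9 males with a lettered title had lowest, median and highest levels of 235, 295 and 389.7 CPM, in the 14 males without 241, 272 and 292 CPM, and in the 29 females 276, 354 and 476 CPM. The lettered males thus lay between the others in their median. With a term for the title style, Ctsd alone passed (0.25, edgeR adjusted p = 0.0192), and 18 genes passed in all instead of 671. With both terms Ctsd alone again passed (0.26, adjusted p = 0.0266), and among lettered titles alone it had a like difference of 0.26 and did not pass (adjusted p = 0.0694). How much of the sex difference of the other 6 genes belongs to the title style cannot be told apart. All 20 microglial identity genes had positive female differences as well, 11 of them called, and their median summed level was 835 CPM in females and 718 in males. Other cell type genes moved with sex as well: Gfap (0.71, edgeR adjusted p = 1.86e-05) and Aldoc (0.15, adjusted p = 0.0187) of the astrocyte list and the choroid plexus gene Ttr (3.35, adjusted p = 0.00215) were called higher in females. The summed choroid plexus genes had medians of 32.3 CPM in females and 23.7 in males, and reached 2650 CPM in 1 female library. All 3 monocyte and neutrophil genes tested were called lower in females, with Ngp at -2.26, S100a9 at -1.78 and S100a8 at -1.70. Genes of that list lay near the floor, with a median sum of 1.26 CPM in males and 0.77 in females. The highest sums were 39.5 CPM in APP/E4 HFD male 3 and 26.2 in APP/E3 ND male 1. The part of these cell types was not tested. With the same covariate, not centred on group means, Ctsd (0.19), Ctsl (0.15), Ctsz (0.18) and Cd63 (0.39) passed, and the Ctss difference was 0.00. That covariate holds the sex difference of the microglial genes themselves.

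**Figure D3:**
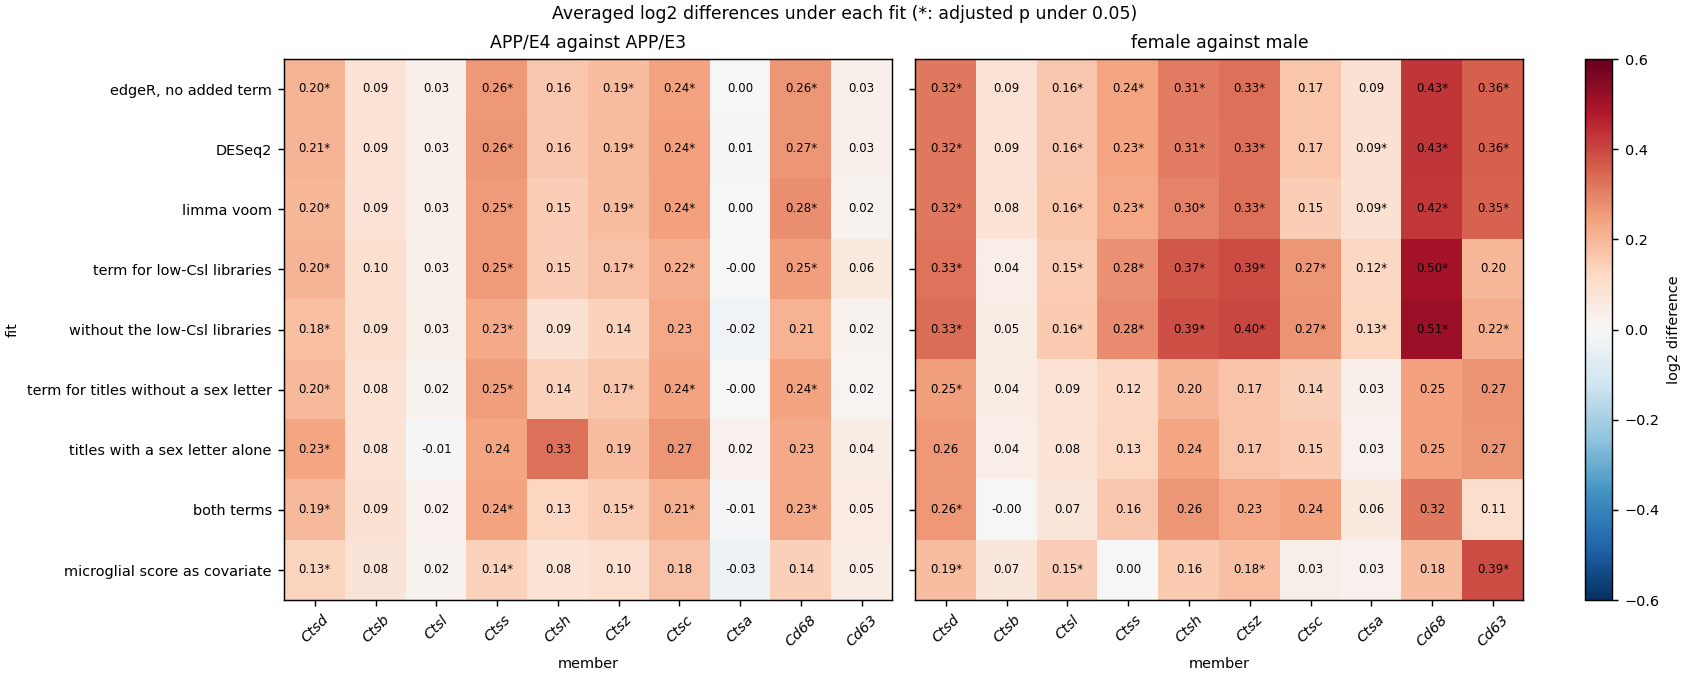
Log2 differences of the members (columns) for genotype and sex under each way of fitting the model or choosing libraries (rows), as colour and printed value, with a star where adjusted p was under 0.05. For sex, 7 genes were starred with no added term and Ctsd alone with a term for title style.

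Cd63 behaved unlike the others. In APP/E3 mice on HFD it was at 10.6, 12.4 and 13.4 CPM (lowest, median, highest) in males and 17.6, 19.2 and 20.01 CPM in females, ranges that did not overlap. The low-Csl females as a class held 17.6, 20 and 28.7 CPM and the other 18 females 12.98, 16.1 and 23.3 CPM. The low-Csl class had higher Cd63 by 0.39 ± 0.08 on the log2 scale (edgeR adjusted p = 0.000271) and lower Ctsc (-0.27 ± 0.10, adjusted p = 0.0489), where 23.7% of genes were called. With a term for that class the Cd63 sex difference was 0.20 (adjusted p = 0.0812), and without those libraries it was 0.22 (adjusted p = 0.0399). Titles without a letter had lower Ctsz (-0.27 ± 0.07, adjusted p = 0.0213) and Cd68 (-0.31 ± 0.10, adjusted p = 0.0493), where 6.19% of genes were called.

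Within genotype and diet, the sex difference of Ctsd passed in APP/E4 mice on both diets. In APP/E4 ND mice it was 0.42 ± 0.08 (edgeR adjusted p = 0.00433), with female and male ranges of 329.6 to 421 and 259.7 to 311 CPM that did not overlap, and it was the only member called where 0.0921% of genes were. In APP/E4 HFD mice it was 0.43 ± 0.08 (adjusted p = 0.00847), again the only member called where 0.079% of genes were. That call was lost on leaving out any 1 of 4 libraries, APP/E4 HFD female 1, male 1, male 2 or male 5 (adjusted p up to 0.0944). Male 3 overlapped the females there, and without it the difference was 0.53 ± 0.08 (adjusted p = 8.67e-05), with Ctsz (0.50, adjusted p = 0.0295) and Ctss (0.50, adjusted p = 0.0486) passing too. In APP/E3 HFD mice the called members were Cd63 (0.61 ± 0.14, adjusted p = 0.0266) and Cd68 (0.54 ± 0.14, adjusted p = 0.0465) where 0.638% of genes were called, and the Cd68 call was lost on leaving out any 1 of 24 libraries (adjusted p up to 0.126). The Cd63 call was lost on leaving out any 1 of 6, APP/E3 HFD females 1 and 7 and males 1 to 4 (adjusted p up to 0.0985). The 97 genes behind that share became 16 without APP/E3 HFD male 4 and 228 without APP/E3 ND male 2. In APP/E3 ND mice, where 0.125% of genes were called, no member passed. Among libraries with lettered titles alone, no member passed for sex within any genotype and diet.

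The comparison of diets called no member and no gene (0% of genes, edgeR). At an unadjusted p under 0.05 there were 1398 genes, DESeq2 called 1 gene and limma voom 0. Members stood on both sides, 5 higher and 5 lower on HFD. The nearest to passing were Ctss, at 111 ± 26.4 CPM on HFD and 100.2 ± 16.9 on ND (SD, n = 26 each), with a log2 difference of 0.14 ± 0.06 (unadjusted p = 0.0230, edgeR adjusted p = 0.460), and Ctsc (0.16 ± 0.07, adjusted p = 0.504). Ctsd differed by 0.07 ± 0.04 (adjusted p = 0.598), Cd68 by 0.05 ± 0.07 (adjusted p = 0.882) and Cd63 by -0.06 ± 0.07 (adjusted p = 0.834). Without APP/E4 HFD male 3 the differences were 0.09 for Ctss, 0.04 for Ctsd and 0.02 for Cd68.

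Within genotype and sex, no member passed for diet, and the number of positive differences varied. Over all genes the positive share was 51.66% in APP/E4 females, 47.19% in APP/E3 males, 49.19% in APP/E4 males and 48.35% in APP/E3 females. Members varied together between libraries, so their signs are not independent. In APP/E4 females all 10 members were positive, with Ctsh at 0.35 ± 0.14 (edgeR adjusted p = 0.599) and Ctsd at 0.15 ± 0.07 (adjusted p = 0.626), where 0% of genes were called. In APP/E3 males 1 of 10 was positive, with Cd68 at -0.26 ± 0.15 and Cd63 at -0.27 ± 0.15 (adjusted p = 0.426 and 0.429), where again 0% were called. In APP/E4 males 7 of 10 were positive (0% of genes called). Ctss was at 0.30 ± 0.13 (adjusted p = 0.995), and at 0.11 without male 3. In APP/E3 females 4 of 10 were positive, with Ctss at 0.10 ± 0.11, and 4 genes were called (0.0263%), no member among them. The interaction of diet with genotype was positive for all 10 members, and none passed: Ctss was at 0.24 ± 0.12 (unadjusted p = 0.0474, adjusted p = 0.499), and at 0.15 ± 0.11 without APP/E4 HFD male 3. For that interaction edgeR called 0 genes, with 1515 at an unadjusted p under 0.05, and 52.4% of all genes were positive.

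The other genes of the lysosome were described from fixed lists. In APP/E4 against APP/E3, 0 of 9 other lysosomal proteases, 0 of 14 lysosomal membrane proteins, 0 of 17 subunits of the V-ATPase proton pump and 0 of 11 regulators and sorting receptors passed, with list medians between -0.01 and 0.07 on the log2 scale. Of all genes tested, 6.79% were called in that contrast and 3.39% were called higher. Among 32 hydrolases and cofactors 3 were called higher, among them Aga, which splits sugars from asparagine (0.23 ± 0.06, edgeR adjusted p = 0.0150). The cathepsin inhibitor gene Cst7, a cystatin that microglia express around plaques, was the only one of 7 inhibitors called, at 1.24 ± 0.21 (adjusted p = 6.67e-05), while the brain's abundant cystatin gene Cst3 was at -0.15 ± 0.07 (adjusted p = 0.171). Of the tetraspanins other than Cd63, Cd9 (0.21) and Tspan2 (0.29) were called higher and Tspan3 (-0.10) lower.

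Between sexes, 8 of 32 hydrolases and cofactors were called higher in females, among them Gusb (0.30), Npc2 (0.21) and Grn (0.18), and 30 of the 32 had positive differences. Of all genes tested, 4.42% were called, 2.91% were called higher and 51.23% had positive differences. The V-ATPase genes Atp6v0c (0.26), Atp6v1g1 (0.90) and Atp6v1f (0.17) were called, as were the protease gene Lgmn (0.11) and the inhibitor genes Cst7 (1.28) and Cst3 (0.40). None of the 14 membrane proteins passed, with a median of -0.00. Title style touches these sex calls as it does those of the members, and so does the low-Csl class of 11 female libraries. Of all genes, 23.7% were called for the low-Csl class and 6.19% for title style. Values of these list genes with terms for the classes are not given here. The plaque-induced microglial list had 11 of 21 genes called higher in APP/E4 and 14 of 21 in females, where 3.39% and 2.91% of all genes were. Its medians were 0.26 and 0.38, above those of the members. For diet, no gene of any of the 17 lists passed.

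Between mice of the same group, several members varied with microglial genes. Residuals of log2 CPM from the 8 group means were compared over the 52 libraries with the mean standardized residual of 20 microglial identity genes, none of them a member. Of 10 relations 7 passed after Benjamini-Hochberg adjustment, with permutation tests whose smallest possible p was 1e-05. The share of all genes passing the same test was not computed, here or for the other scores below. These counts therefore have no background beside them and do not show that the members are unusual. Ctss was the closest, with Pearson r 0.86 and Spearman rho 0.86 (permutation, adjusted p = 2.5e-05 for both), and r 0.83 without the 2 libraries farthest from the median score. Ctsd had r 0.77 and rho 0.75 (0.71 without the 2 libraries), Cd68 r 0.75 and rho 0.77 (0.73), and Ctsz r 0.65 and rho 0.63 (0.56), each with adjusted permutation p = 2.5e-05.

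Ctsa (r 0.53, rho 0.53), Ctsh (0.50, 0.42) and Ctsc (0.42, 0.40) passed more weakly, with adjusted permutation p for r of 0.00034, 0.00248 and 0.00991, and r of 0.42, 0.42 and 0.37 without the 2 farthest libraries. Ctsb (r 0.16, rho 0.24), Ctsl (0.15, 0.24) and Cd63 (-0.05, -0.08) did not pass (adjusted permutation p for r of 0.349, 0.349 and 0.742). Ctsb and Ctsd were alike in level per kilobase and far apart in r. Without the low-Csl libraries, r was 0.89 for Ctss, 0.81 for Ctsd, 0.75 for Cd68, 0.70 for Ctsz, 0.36 for Ctsb and 0.24 for Cd63. Ctsb passed there (adjusted permutation p = 0.0483), and Ctsc did not (r 0.34, 0.0872), nor with residuals taken also from the Csl class and title style (r 0.33, adjusted permutation p = 0.0549). Within the 14 letterless males r was 0.78 for Ctss, which alone passed, 0.63 for Ctsd and 0.49 for Cd68, and within the 11 low-Csl libraries none of the 10 passed. With the plaque-induced microglial genes 8 members passed, led by Ctss (r 0.80, rho 0.74) and Ctsd (0.75, 0.75), and Ctsl had r 0.37 and rho 0.52 (adjusted permutation p for r 0.0101). The Ctsl relation was lost with residuals taken also from the class and title style (r 0.27, adjusted permutation p = 0.0930) and among lettered titles (r 0.30, 0.163). Cd63, which had r 0.30 and did not pass, passed in CPM of total counts (r 0.38, adjusted permutation p = 0.0126), with class residuals (r 0.40, 0.00733) and without the low-Csl libraries (r 0.45, 0.00433).

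**Figure D4:**
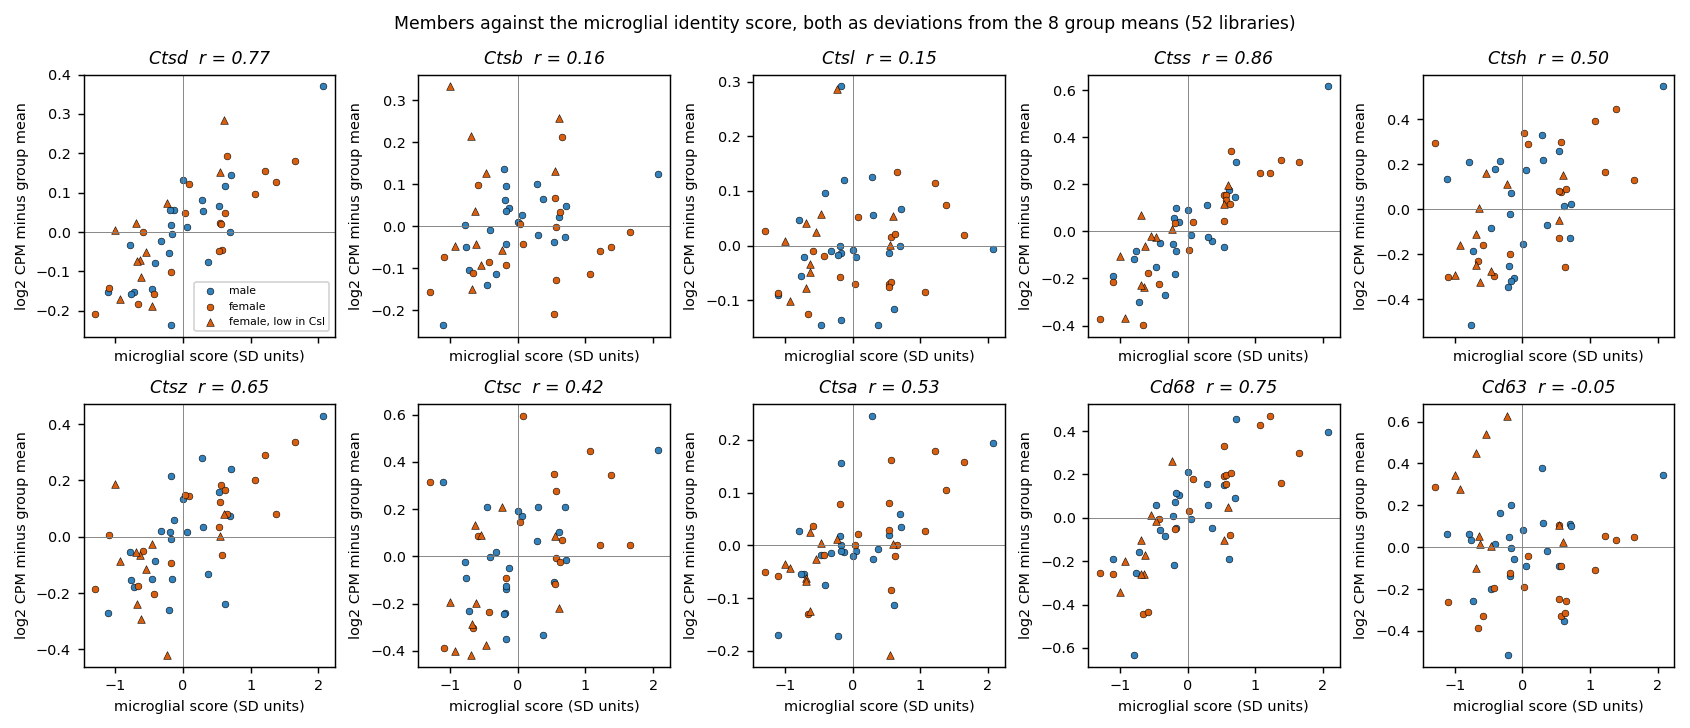
Log2 CPM of each member (y axis) against the microglial identity score in SD units (x axis), both as deviations from group means, 1 point per library, with triangles for libraries low in Csl. Points rise together for Ctss (r 0.86) and Ctsd (r 0.77) and do not for Cd63 (r -0.05).

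Ctsb and Ctsc stood at opposite ends for other cell types. Of 80 relations between members and 8 lists of other cell types, 20 passed, again without a share over all genes to set beside them. Ctsb was lower where perivascular macrophage genes (r -0.60, rho -0.57) and fibroblast and mural genes (r -0.56, rho -0.58) were higher, each with adjusted permutation p = 0.0004 for r. Without the 2 farthest libraries these r were -0.55 and -0.61. Ctsc was higher with fibroblast and mural genes (r 0.61, rho 0.60, and 0.59 without 2 libraries) and perivascular macrophage genes (r 0.58, rho 0.61, and 0.52), with adjusted permutation p of 0.0004 and 0.0008 for r. Ctsd followed endothelial genes (r 0.65, rho 0.57, and 0.54 without 2 libraries, adjusted permutation p = 0.0004). It was not alone in this. Ctsc (r 0.55), Ctsh (0.53), Ctsz (0.46), Cd68 (0.45) and Ctss (0.42) passed with endothelial genes too, and Ctsa, Ctsb, Ctsl and Cd63 did not. With astrocyte genes Ctsc (r 0.58), Ctsd (0.54), Ctsh (0.52) and Cd68 (0.44) passed. Several members that varied with microglial genes thus varied with these lists as well. Perivascular macrophage genes summed to 80.5 CPM in APP/E3 ND male 3, above the 29.6 CPM of the highest female library. The part of tissue composition in these relations was not tested.

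**Figure D5:**
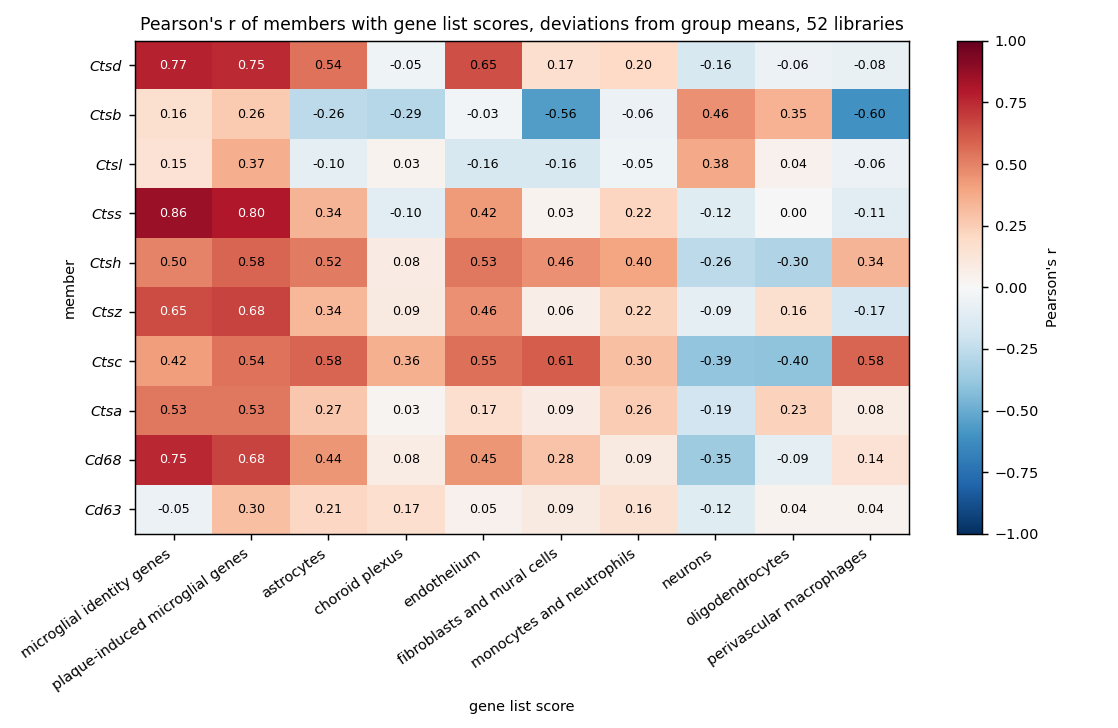
Pearson's r over 52 libraries (colour and printed value) between each member (rows) and the score of each gene list (columns), both as deviations from group means. Ctsb has r -0.60 with perivascular macrophage genes, where Ctsc has 0.58.

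Of the 45 pairs of members, 42 had positive r and 25 passed after adjustment over the pairs. The share among pairs of other genes was not computed. The closest pairs were Ctsd with Ctss (r 0.78), Ctss with Cd68 (0.71), Ctsh with Ctsc (0.68) and Ctsz with Ctsa (0.66), while Ctsb with Ctsc had r -0.30 (adjusted permutation p = 0.0900).

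The genes most like each member, by r of residuals over the 52 libraries among 12176 genes, divided the list. The complement genes C1qa and C1qb, made by microglia, were among the 3 closest to Ctss (r 0.83 and 0.82), and C1qb was among those of Ctsd (0.76). Cd68 was closest to C1qa (0.73), and Ctsh and Ctsc to Lyz2 (0.73 and 0.67) and the Fc receptor gene Fcgr2b (0.71 and 0.72). Ctsb was closest to Napa, a vesicle fusion gene (0.88), and had Lynx1, a modulator of nicotinic receptors (0.85), among its 3 closest, and without the low-Csl libraries r with Napa was again 0.88. Ctsz was closest to Rtn2 (0.75), Ctsa to Ntsr2 (0.75) and Ftl1 (0.74), and Ctsl to Lsm3 (0.70). Cd63 was closest to Suclg2 (0.77) and the ribosomal protein genes Rps24 (0.73) and Rps9 (0.72), and without the low-Csl libraries these r were 0.66, 0.60 and 0.60. These are descriptions over libraries that share depth and composition, with no test.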

How the data were processed

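Per the submitters' processing notes, the authors used Subread, featureCounts, limma and edgeR 3.14.0 with build mm9; which step used which setting is not given in the sources used here. The deposited table holds whole-number counts per gene for 52 libraries, and beside them the authors' log2 coefficients and p-values for the diet contrast. Groups came from the labels. The members and lists were chosen with earlier results of these data known.

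Counts were fitted with edgeR 4.0.16 (R 4.3.3; TMM, quasi-likelihood) as 8 group means. The filter on low counts removed 497 of 15692 genes; all 10 members passed. Of 20 contrasts, 3 average over the other factors, and p-values were Benjamini-Hochberg adjusted over the 15195 genes tested, called under 0.05. CPM levels are of total counts; residuals used TMM-scaled log2 CPM (prior count 2). Correlations over all 52 libraries used 100000 permutations, and those over fewer libraries used 10000. Alternatives were DESeq2 1.42.0, limma 3.58.1 (voom), no filter, each library left out, and terms or exclusions for low-Csl libraries (Csl under 2 CPM) and title style; the microglial covariate and the subsets were among them. Named genes are all members, per list at most 3 called genes of smallest p, and the 3 genes most like each member; a few that this rule names are not reported here. The code was tested on simulated counts. Depth of 5343347 to 39388340 counts per library sets the counting precision.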

Additional observations from a re-analysis of the deposited data

Results flagged for a closer look

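In 8 of 80 tests of 1 gene in 1 group, an extreme library was separated from its neighbours by a larger share of the group's range than Dixon's 95% critical value, where chance gives about 1 in 20. APP/E4 HFD male 3 accounted for 3 of them, with Ctss at 165.5 CPM (next highest 107), Ctsz at 60.4 CPM (next 44.6) and Ctsa at 106 CPM (next 92.2). Ctsb was high in APP/E3 ND female 4, a low-Csl library, at 858 CPM (next 698), and low in APP/E3 HFD male 4, at 582 CPM (next lowest 639.7). Ctsl was high in APP/E3 ND male 2, at 112.5 CPM (next 91.6), and in APP/E4 ND male 6, at 111 CPM (next 97.2). Ctsc was high in APP/E3 HFD female 6, at 13.6 CPM (next 9.80).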

How the results depend on the processing

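No called difference of a member changed sign in any alternative run. No paired analysis was possible because replicate numbers follow accession order and pair no animals. DESeq2, voom, no filter and either class term left the genotype count at 5 members and 1032 genes within 1.5 times, except 1684 genes with both terms. The count was 2 members without the low-Csl libraries, 2 (1958 genes) with the microglial covariate, 1 (116) with lettered titles alone and 0 (121) with those less the low-Csl libraries. For sex, 7 members and 671 genes became 1 and 18 with the title term, 1 and 32 with both terms, 4 members with the covariate, 0 and 14 with lettered titles, and 0 and 28 with those less the low-Csl libraries. Diet called 1 gene with DESeq2 and 6 with the covariate. The cause of these changes was not tested; the subsets hold fewer samples.

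Within sex and diet, the genotype count in HFD females (2) was 1 with voom, the low-Csl term, both terms or lettered titles and 0 without the low-Csl libraries, with the covariate or with lettered titles less low-Csl; in ND females it was 2 with the covariate. The sex count in APP/E3 HFD (2) was 5 without the low-Csl libraries, 1 with voom, the low-Csl term or the covariate, and 0 with the title term, both terms or either lettered subset. In APP/E4 ND (1) it was 0 with the title term, both terms or either lettered subset, and in APP/E4 HFD (1) 0 with the covariate or either lettered subset.

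Signs of differences changed only for members that did not pass. The genotype difference of Ctsl was -0.0106 and -0.00429 in the lettered subsets, and that of Ctsa -0.00371 (low-Csl term), -0.00468 (title term), -0.0115 (both), -0.0210 (without low-Csl) and -0.0305 (covariate). The sex difference of Ctsb was -0.00378 with both terms. The diet difference of Ctsz was 0.00815 and of Ctsa 0.00474 with the low-Csl term; without those libraries Ctsz was 0.0261, Ctsl 0.0107, Ctsa 0.0236 and Cd63 0.0337, and with the covariate Cd68 was -0.0172. Among correlations, Ctsh, Ctsc and Ctsa, which passed over all libraries, changed sign in small subsets. Correlation with the microglial score was -0.00308 for Ctsb in females, -0.217 for Ctsh and -0.0385 for Ctsc in letterless males, -0.257 for Ctsa in low-Csl libraries, and for Cd63 0.00896 (total-count CPM), 0.130 (class residuals), 0.239 (without low-Csl), 0.0793 (low-Csl alone) and 0.296 (males). With the plaque-induced score it was -0.295 for Cd63 in low-Csl libraries. Members passing numbered 0 in low-Csl libraries for either score, and 1 (microglial) and 0 (plaque-induced) in letterless males.

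Leaving out 1 library at a time, genotype calls were 4 to 6 members and 792 to 1342 genes, and sex calls 7 to 8 members and 431 (without APP/E4 HFD male 5) to 1061 genes (without APP/E4 ND male 6). Diet called 0 to 2 genes. The counts were 1 to 2 members for genotype in HFD females, 0 to 3 for sex in APP/E3 HFD, 0 to 1 in APP/E3 ND and 0 to 3 in APP/E4 HFD. Genotype differences of Ctsa ran from -0.00898 to 0.0125, and diet differences of Ctsa from -0.0161 to 0.0107, of Ctsb from -0.0268 to 7.39e-05 and of Ctsz from -0.0372 to 0.00956. Members passing with the microglial and plaque-induced scores numbered 6 to 7 and 8 to 10. The lettered subsets, the leave-outs within groups and the correlations within a class or sex were chosen after seeing the data.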

Other observations

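The authors' deposited table carries a diet coefficient for each gene. For 9 of the 10 members its sign was opposite to that of the HFD minus ND difference computed here, with Ctss at -0.13 (unadjusted p = 0.0973), Ctsc at -0.14 (unadjusted p = 0.0798) and Ctsd at -0.07 (unadjusted p = 0.294) in the authors' deposited table. Ctsa, with -0.00 in both, was the exception. The HFD minus ND differences computed here were 0.14 for Ctss, 0.16 for Ctsc and 0.07 for Ctsd, near the authors' values in size. A coefficient taken as ND minus HFD would carry the opposite sign in this way. The direction in which the authors coded diet is not given in the sources used here.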
